A study of Homo sapiens with 14 samples.

Results

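The genes described here encode the enzymes of cholesterol and fatty acid synthesis, the sterol-sensing regulators of these pathways and 1 sterol carrier. The members were located by gene symbol, and all 32 were found among the 21574 rows of the RPKM table, in which RPKM are reads scaled to transcript length and library size. They comprise 16 enzymes of the sterol pathway, 5 regulators of the SREBP system, the sterol carrier STARD4 and 10 enzymes of fatty acid synthesis, elongation and desaturation. Of these genes, 29 had a row of their own, while SREBF1, SREBF2 and FADS1 shared a row with MIR33B, MIR33A and MIR1908, the microRNA genes inside them. The study asked how loss of ADAR1, the enzyme that deaminates adenosine to inosine in double-stranded RNA, alters RNA structure and its use. Cells labelled HepG2, a human hepatocellular carcinoma line, received scrambled siRNA (control) or siADAR1 (KD) in what the labels call a stable transfection, with no other difference stated in the labels. The 14 samples consist of 8 PARS-seq libraries, in which poly-A RNA was cut in vitro by S1 nuclease at single-stranded or by RNase V1 at double-stranded bases, 2 RNA-seq libraries with 1 per condition, and 4 Ribo-seq libraries of ribosome-protected fragments with 2 per condition. Each PARS-seq RPKM value is the authors' mean over both nucleases of a replicate, so that 2 control and 2 KD values were available per gene.

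Cholesterol is built from acetyl-CoA through mevalonate, the isoprenoid diphosphates, squalene and lanosterol, and fatty acids are built from the same precursor by carboxylation and repeated condensation. The transcription factors encoded by SREBF1 and SREBF2 are held in the endoplasmic reticulum as precursors bound to SCAP, and the INSIG proteins retain this complex when sterols are plentiful. When sterols fall, the SREBP precursors move to the Golgi apparatus, are cleaved and activate the genes of both pathways, with SREBF1 acting mainly on fatty acid genes and SREBF2 mainly on sterol genes. In hepatocytes these pathways supply lipoproteins and bile acids.

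The hepatocyte markers did not match the label of the cells. ALB, AFP, FGB, AHSG and HNF4A did not exceed 0.803 RPKM in any of the 10 columns, and APOA2, the apolipoprotein, reached 2.12 RPKM in a single Ribo-seq library. A further 8 liver genes, chosen after these values were seen and including SERPINA1, TTR and FGA, reached at most 0.182 RPKM. Among 6 markers of other cell types the leukocyte and endothelial genes did not exceed 0.275 RPKM, whereas COL1A1, a collagen chain of fibroblasts, ranged from 9.75 to 54.7 RPKM and DCN from 0.120 to 7.61 RPKM. The summed level of these 6 genes ranged from 14.6 to 57.8 RPKM in control and from 11.2 to 43.1 RPKM in KD over all assays. In PARS-seq COL1A1, the 1 marker of this list that passed the filter, was at 19.5 and 29.3 RPKM in control and at 16.6 and 19.4 RPKM in KD, with a log2 change of -0.40 ± 0.22 and an adjusted p of 0.242. The part of these markers in the results below was not tested. The cells are therefore named here by their siRNA only, and nothing below is specific to hepatocytes. In bulk RNA of this kind, fewer cells of a type and less RNA per cell cannot be told apart.

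ADAR, the siRNA target, was lower in each KD library than in the control of the same number. Its PARS-seq level was 40.7 and 46.8 RPKM in control and 15.1 and 15.1 RPKM in KD, and its RNA-seq level was 54.8 RPKM in control and 15.4 RPKM in KD. In Ribo-seq it was 43.6 RPKM in control and 8.73 RPKM in KD for replicate 1, but 55.5 and 44.0 RPKM for replicate 2. KD replicate 2 thus lay slightly above control replicate 1, and the Ribo-seq groups overlapped. The second Ribo-seq KD library thus retained 0.794 of its control level, while the first retained 0.20. Depth also differed strongly between assays. Whole reads could be recovered from the RPKM steps, with 38739562 and 28668399 reads on genes in RNA-seq and between 737752 and 1845298 in the Ribo-seq libraries, while the PARS-seq libraries held between 96618292 and 214584779 read starts. The study describes the PARS-seq and Ribo-seq replicates as biological, while the labels do not say whether they were separate cultures, and p-values measure the spread between these samples.

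In control cells the members were abundant. Their median was 33.0 and 30.4 RPKM in the PARS-seq replicates, against 9.85 and 9.65 RPKM for all genes of at least 1 RPKM, and 46.9 RPKM in RNA-seq, against 10.1 RPKM. In RNA-seq the highest was FDPS, which makes farnesyl diphosphate, at 357 RPKM, and the lowest was INSIG2 at 1.51 RPKM. EBP, the sterol isomerase, was the highest in both Ribo-seq control libraries, at 452 and 171 RPKM. The assays did not give the same order of levels. The control level in PARS-seq divided by that in RNA-seq ranged from 0.127 for SREBF2 to 33.2 for STARD4 and exceeded 1 for 13 of the 32 genes.

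In PARS-seq most of the calls among these genes were reductions in KD, chiefly of sterol enzymes, while SREBF1 and FASN were called higher. Of the 32 genes, 9 passed the test (limma on log2(RPKM + 1), Benjamini-Hochberg adjusted p under 0.05), 7 of them lower and 2 higher in KD. Over all 11153 genes tested, 15.5% passed, with 7.43% lower and 8.06% higher. The share of members called higher was thus not above that of all genes. Among the 16 sterol enzymes 6 fell, none rose and 10 did not pass, and the median log2 change of this group was -0.55. Of the 10 fatty acid enzymes 1 rose, none fell and 9 did not pass, with a median of -0.17, and of the 5 regulators 1 fell and 1 rose. The median log2 change was -0.31 over the members and 0.04 over all genes tested. With no filter on low values, which tested 19048 genes, MVD and SQLE kept their calls and the other 7 lost theirs. In 21 of the 32 genes both KD values lay below both control values, compared with 27.1% of all genes, and in 5 both lay above, compared with 33.3%. With 2 values against 2, the smallest two-sided p of an exact permutation test is 0.333, and single genes were therefore tested in the fit across all genes.

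**Figure D1:**
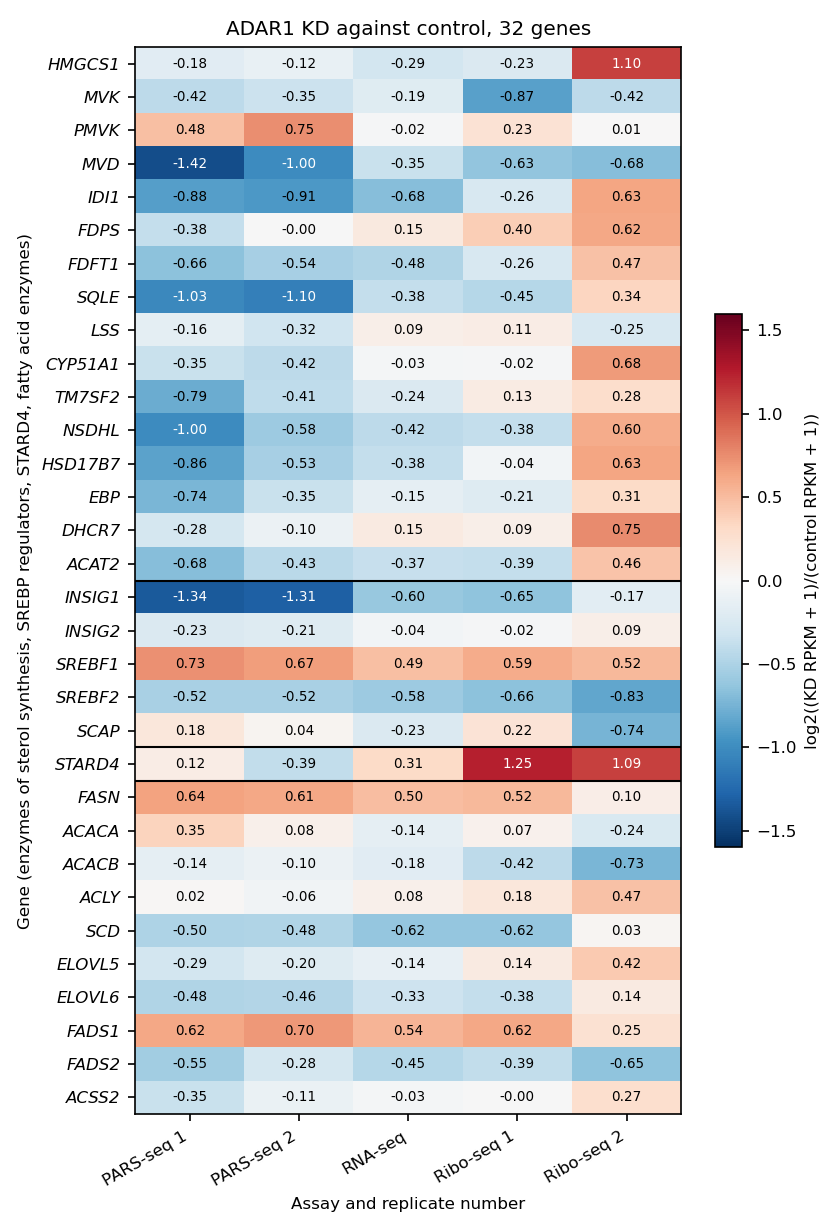
Log2 of KD over control RPKM, with 1 added to each, for the 32 genes (rows, by group) in each same-numbered pair of libraries of the 3 assays (columns), with the value written in each cell. Most sterol enzymes are blue (lower in KD) in both PARS-seq columns and in RNA-seq but red in Ribo-seq 2, while SREBF1, FASN and FADS1 are red in all 5 columns.

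The largest reductions among the enzymes were those of MVD and SQLE. MVD (chr16:88718343-88729569, coordinates of genes in GRCh37) encodes the decarboxylase that makes isopentenyl diphosphate from mevalonate diphosphate, and its PARS-seq level was 25.9 and 23.2 RPKM in control and 9.04 and 11.1 RPKM in KD. Both KD values were below both controls, and MVD fell by 1.21 ± 0.17 (SE) on the log2 scale with an adjusted p of 0.00441. SQLE, the squalene epoxidase and a rate-limiting step of the later pathway, was at 30.9 and 30.5 RPKM in control and at 14.6 and 13.7 RPKM in KD. It fell by 1.07 ± 0.16 with an adjusted p of 0.0050046.

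The 4 other enzymes that fell act before and after squalene. IDI1 (chr10:1085092-1095059), the isomerase of isopentenyl diphosphate, was among the most abundant members, with 221 and 169 RPKM in control and 120 and 89.2 RPKM in KD, a fall by 0.90 ± 0.22 with an adjusted p of 0.0327. NSDHL (chrX:151999511-152038273), which removes the C4 methyl groups of the sterol, was at 40.1 and 30.3 RPKM in control and 19.5 and 19.95 RPKM in KD, a fall by 0.79 ± 0.19 with an adjusted p of 0.0270. In both genes the KD values were lower than either control, although the control replicates themselves lay apart, with replicate 1 above replicate 2. HSD17B7 (chr1:162760492-162782613), the ketosteroid reductase of the same demethylation complex, was lower in level, at 9.13 and 7.91 RPKM in control and 4.59 and 5.17 RPKM in KD, and fell by 0.69 ± 0.16 with an adjusted p of 0.0237. TM7SF2 (chr11:64879317-64883856), a sterol reductase, had the lowest level of those called, with 3.17 and 2.28 RPKM in control and 1.41 and 1.47 RPKM in KD, and fell by 0.60 ± 0.15 with an adjusted p of 0.0341. These 4 calls were lost when single libraries were left out, in fits where the remaining library of that condition is assumed to vary like the other group. Without control replicate 1 the adjusted p was 0.0571 for IDI1, 0.108 for NSDHL, 0.0795 for HSD17B7 and 0.152 for TM7SF2. Without KD replicate 1 it was 0.0649 for HSD17B7 and 0.0547 for TM7SF2, and without KD replicate 2 it was 0.137 for IDI1 and 0.0501 for TM7SF2.

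**Figure D2:**
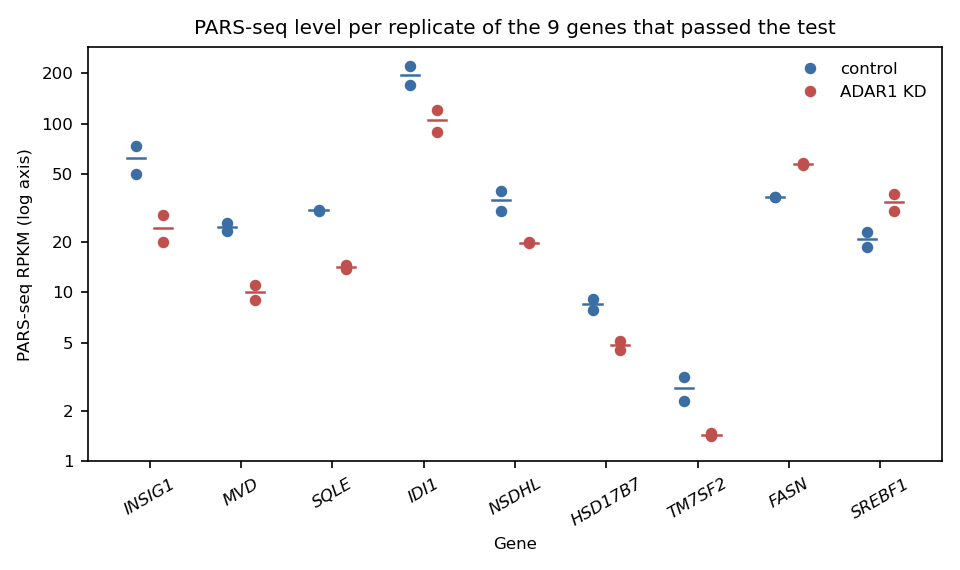
PARS-seq RPKM (log axis) in the 2 control and 2 KD replicates of the 9 genes that passed the test, with points for replicates and short lines for their means. In INSIG1, MVD, SQLE, IDI1, NSDHL, HSD17B7 and TM7SF2 both KD points are below both control points, and in FASN and SREBF1 both are above.

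The 10 sterol enzymes that did not pass covered the whole pathway. FDFT1, the squalene synthase, was at 210 and 195 RPKM in control and 133 and 134 RPKM in KD, with an adjusted p of 0.0553, just outside the threshold. PMVK, the phosphomevalonate kinase, was the one sterol enzyme with a higher estimate in KD, at 51.1 and 56.3 RPKM in control and 71.6 and 95.2 RPKM in KD, with an adjusted p of 0.0704. ACAT2, the cytosolic thiolase at the entry of the pathway, EBP, MVK, CYP51A1, LSS, DHCR7, FDPS and HMGCS1 had estimates between -0.56 and -0.15 on the log2 scale and adjusted p-values between 0.0767 and 0.592. Leaving out control replicate 2 gave PMVK an adjusted p of 0.0365 and EBP of 0.0361, and leaving out KD replicate 1 gave PMVK 0.0328. Of the 32 genes, 10 overlap another protein-coding gene in the annotation, 8 of them on the opposite strand. Among these are SREBF1 with RAI1, ACAT2 with TCP1 and MVK with MMAB. The counting command in the methods has no strand option, so that reads of a gene and of such a neighbour cannot be told apart where they overlap.

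Among the regulators, INSIG1 and SREBF1 moved in opposite directions. INSIG1 (chr7:155089486-155101945), whose product retains the SREBP precursors, had the largest reduction of all 32 genes, from 74.0 and 50.5 RPKM in control to 28.6 and 19.8 RPKM in KD. It fell by 1.32 ± 0.24 with an adjusted p of 0.0116. With no filter on low values the adjusted p was 0.0967. SREBF1 (chr17:17713713-17740316) was at 22.7 and 18.6 RPKM in control and at 38.3 and 30.3 RPKM in KD, a rise of 0.70 ± 0.19 with an adjusted p of 0.0428. Its call was lost without control replicate 2, with an adjusted p of 0.0872, without KD replicate 1, with 0.162, and when each library was scaled by its median ratio to the geometric mean of the libraries, with 0.0547. With that scaling 9 of the 32 genes passed, 1 higher and 8 lower, since FDFT1 took the place of SREBF1.

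The other regulators did not pass in PARS-seq. SREBF2 (chr22:42229109-42303310) was at 18.4 and 15.4 RPKM in control and at 12.6 and 10.4 RPKM in KD, so that both KD values were lower, with a log2 change of -0.52 ± 0.18 and an adjusted p of 0.0800. Without control replicate 2 its adjusted p was 0.0444. SCAP (chr3:47455171-47518616), the escort of the precursors, was at 6.89 and 8.03 RPKM in control and 7.96 and 8.27 RPKM in KD. INSIG2 (chr2:118846028-118868573) was at 5.50 and 4.92 RPKM in control and 4.55 and 4.13 RPKM in KD. The log2 change was 0.11 ± 0.16 for SCAP and -0.22 ± 0.15 for INSIG2, with adjusted p-values of 0.658 and 0.347.

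Promoter windows of SREBF2, INSIG1 and the 5 enzymes that fell and had an entry are shown here because sterol response elements and CCAAT boxes are the known sites of SREBPs and of their partner NF-Y. In RefSeq promoters of 250 bases before and 50 bases after the start site (GRCh38.p14), of which 28 of the 32 genes had an entry and ACAT2, FASN, FDFT1 and SQLE had none, a sterol response element of the letters TCACNCCAC, on either strand, was found in SREBF2 only, and in 1.39% of 27305 genes. The CCAAT box, CCAAT or ATTGG, was found in 21 of the 28 genes, or 75.0%, and in 39.7% of all genes. All genes here were not matched to the members for expression. The CCAAT box was present in each of the 6 called lower that had an entry, but most of the 21 genes with it were not called lower. The entries of SREBF1, SCAP and INSIG2 held neither of these motifs. Only these exact letters within these windows were searched, so that an absent match does not show that a gene lacks such a site. The E-box CACGTG was in 4 of the 28 genes, or 14.3%, against 8.77% of all, and the GC box GGGCGG in 26, or 92.9%, against 48.3%. The printed matches overlapped no other of these motifs. Each line below gives 30 bases in the direction of transcription, with the match in capitals. The match is the sterol response element in SREBF2 (chr22:42228966-42228995 in GRCh37, the build in which all of these windows were located by exact match) and the CCAAT box in the others: INSIG1 (chr7:155089406-155089435), MVD (chr16:88729567-88729596), IDI1 (chr10:1094896-1094925), NSDHL (chrX:151999511-151999540), HSD17B7 (chr1:162760428-162760457) and TM7SF2 (chr11:64879258-64879287).
SREBF2: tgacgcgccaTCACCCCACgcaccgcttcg
INSIG1: cgccggcctcccATTGGttgcggccgcctc
MVD: ggctcgcacgggCCAATcctgtggtagcgc
IDI1: ctggcgcgagcgATTGGctgcgcggcccgg
NSDHL: cgccgagctgggCCAATcctcttggtggag
HSD17B7: tggcggactgagATTGGagggatcagctca
TM7SF2: ccccgagcgccgATTGGctggtgtgctggg

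Counted to the start site of the RefSeq entry, the first base of the match lay 133 bases upstream in SREBF2, 170 in INSIG1 and between 52 and 87 in the other 5. These start sites differ from the ends of the annotated gene spans given above in INSIG1, MVD, IDI1, NSDHL and TM7SF2, while in SREBF2 and HSD17B7 they coincide. The windows of NSDHL and IDI1 lie wholly inside the annotated gene, and that of MVD overlaps it by 3 bases. A match describes these letters and says nothing of whether a factor was bound in these cells.

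Among the fatty acid enzymes, FASN was the only one called in PARS-seq. FASN (chr17:80036214-80056170), the fatty acid synthase, was at 36.9 and 36.8 RPKM in control and at 58.2 and 56.9 RPKM in KD, so that replicates lay close together and the groups did not overlap. It rose by 0.63 ± 0.16 with an adjusted p of 0.0369, but with any 1 of the 4 libraries left out the adjusted p was above the threshold, at 0.0909 without control replicate 1, 0.0546 without control replicate 2, 0.114 without KD replicate 1 and 0.122 without KD replicate 2, with a log2 change between 0.61 and 0.64. FADS1 (chr11:61567099-61596790), the delta-5 desaturase, was at 23.6 and 18.3 RPKM in control and at 36.8 and 30.3 RPKM in KD, with a log2 change of 0.66 ± 0.19 and an adjusted p of 0.0530. It passed without control replicate 1, with 0.0119, without KD replicate 2, with 0.0372, and with a filter of at least 5 RPKM, with 0.0498. The spans of FADS1 and FADS2 overlap on opposite strands. FADS2, the delta-6 desaturase, had the opposite direction, at 9.61 and 6.98 RPKM in control and 6.23 and 5.55 RPKM in KD, with an adjusted p of 0.153. SCD, the stearoyl-CoA desaturase and the most abundant of this group, was at 213 and 162 RPKM in control and 151 and 116 RPKM in KD, with an adjusted p of 0.167. Without control replicate 2 both passed, FADS2 with 0.0441 and SCD with 0.0381. Without control replicate 1 their log2 changes were -0.21 and -0.29, beside -0.42 and -0.49 with all libraries. ELOVL6, the elongase of saturated chains, had a log2 change of -0.47 ± 0.16 with an adjusted p of 0.0819. ACACA, ACACB, ACLY, ELOVL5 and ACSS2 had log2 changes between -0.25 and 0.22 and adjusted p-values from 0.352 to 0.951.

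RNA-seq of the same conditions has 1 library each, and its values have no replicate check. In 24 of the 32 genes the KD level was below control, compared with 52% of all 10946 genes of at least 1 RPKM. The median log2 ratio was -0.19 over the members and -0.01 over all genes. A log2 ratio of -0.5 or less was seen in 4 genes (IDI1, INSIG1, SREBF2 and SCD), compared with 6.96% of all genes, and a ratio of 0.5 or more in FADS1 alone, compared with 6.57%. INSIG1 was at 108 RPKM in control and 71.1 RPKM in KD. With 13593 and 6615 reads, the KD level was 0.656 of control, with a 95% interval of 0.637 to 0.676 (Clopper-Pearson, counting error only). SREBF2 was at 133 and 89.0 RPKM, a ratio of 0.667 (0.652 to 0.682), and SREBF1 at 118 and 166 RPKM, a ratio of 1.40 (1.38 to 1.43). FASN was at 171 and 242 RPKM, a ratio of 1.42 (1.40 to 1.43), and FADS1 at 64.5 and 94.5 RPKM, a ratio of 1.46 (1.43 to 1.5). IDI1 was at 25.1 and 15.3 RPKM, MVD at 99.1 and 77.3 RPKM, SQLE at 27.6 and 21.0 RPKM and NSDHL at 48.3 and 35.9 RPKM. All 4 ratios were below 1 with intervals that exclude 1, the highest of them 0.780 (0.751 to 0.811) in MVD. HSD17B7 was at 8.39 and 6.23 RPKM and TM7SF2 at 11.3 and 9.48 RPKM, and their intervals of 0.641 to 0.860 and 0.741 to 0.940 also lay below 1. SCAP was at 42.1 and 35.7 RPKM and INSIG2 at 1.51 and 1.44 RPKM, the latter with a ratio of 0.950 (0.739 to 1.22).

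In Ribo-seq no gene was called in the fit on condition alone, without a replicate block. Of 10882 genes tested 0% passed, 43 had an unadjusted p under 0.05 (0.395%), and STARD4 was the only one of the 32 among these. For STARD4, which carries cholesterol through the cytosol, the Ribo-seq level was 6.22 and 6.96 RPKM in control and 16.2 and 15.96 RPKM in KD. The replicates of each condition lay close together and the groups did not overlap. Its log2 change was 1.17 ± 0.39, with an unadjusted p of 0.0277 and an adjusted p of 0.99994, and the values rest on 15, 56, 55 and 93 reads. The ratio of KD to control was 2.60 (1.45 to 4.95) in replicate 1 and 2.29 (1.63 to 3.26) in replicate 2. In RNA-seq STARD4 was at 3.19 and 4.19 RPKM, and in PARS-seq at 120 and 91.7 RPKM in control and 130 and 69.8 RPKM in KD, where the groups overlapped and the adjusted p was 0.785.

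The Ribo-seq replicates lay far apart in these genes. In 25 of the 32 genes control replicate 2 was below control replicate 1, and KD replicate 2 was below KD replicate 1 in 25 as well, compared with 58.8% and 54.6% of all genes. The median log2 difference of replicate 2 from replicate 1 among the 16 sterol enzymes was -1.54 in control and -0.81 in KD, while over all genes it was -0.24 and -0.09. NSDHL, for example, was at 75.8 and 13.8 RPKM in control and at 58.1 and 21.4 RPKM in KD. FDFT1 was at 232 and 57.9 RPKM in control and at 194 and 80.4 RPKM in KD. In both genes the KD level was below control in replicate 1 and above it in replicate 2. Of the sterol enzymes 11 of 16 were lower in KD in the first Ribo-seq pair and 3 of 16 in the second. The median log2 ratio of the sterol enzymes was -0.22 in the first pair and 0.46 in the second, beside -0.02 and 0.16 over all genes. The second pair is the one in which ADAR was reduced least, and the part of this difference in the result was not tested.

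In both Ribo-seq pairs 6 members, MVK, MVD, INSIG1, SREBF2, ACACB and FADS2, were lower in KD, compared with 21.8% of all genes, and 10 were higher in both, compared with 31.3%. MVD was at 33.0 and 22.8 RPKM in control and 21.0 and 13.9 RPKM in KD. INSIG1 was at 76.9 and 58.6 RPKM in control and 48.8 and 51.8 RPKM in KD. SREBF2 was at 49.6 and 84.3 RPKM in control and 31.1 and 46.9 RPKM in KD. In these 3 genes both KD values were below both controls, as in MVK and FADS2, 5 genes in all, compared with 7.12% of all genes. Both lay above in PMVK, STARD4 and FADS1, compared with 10.7%. In FDPS, TM7SF2, DHCR7 and ELOVL5 the Ribo-seq pairs were higher while the PARS-seq pairs were lower, compared with 7.38% of all genes, and in none of the 32 was it the reverse, compared with 7.61%. SREBF1 was at 68.8 and 28.7 RPKM in control and 104 and 41.5 RPKM in KD, and FASN at 172 and 109 RPKM in control and 247 and 117 RPKM in KD. For SREBF1 and FASN each KD replicate was above the control of the same number, but the groups overlapped. SCAP was at 14.6 and 36.4 RPKM in control and 17.2 and 21.4 RPKM in KD, and INSIG2 at 8.94 and 5.83 RPKM in control and 8.82 and 6.28 RPKM in KD.

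**Figure D3:**
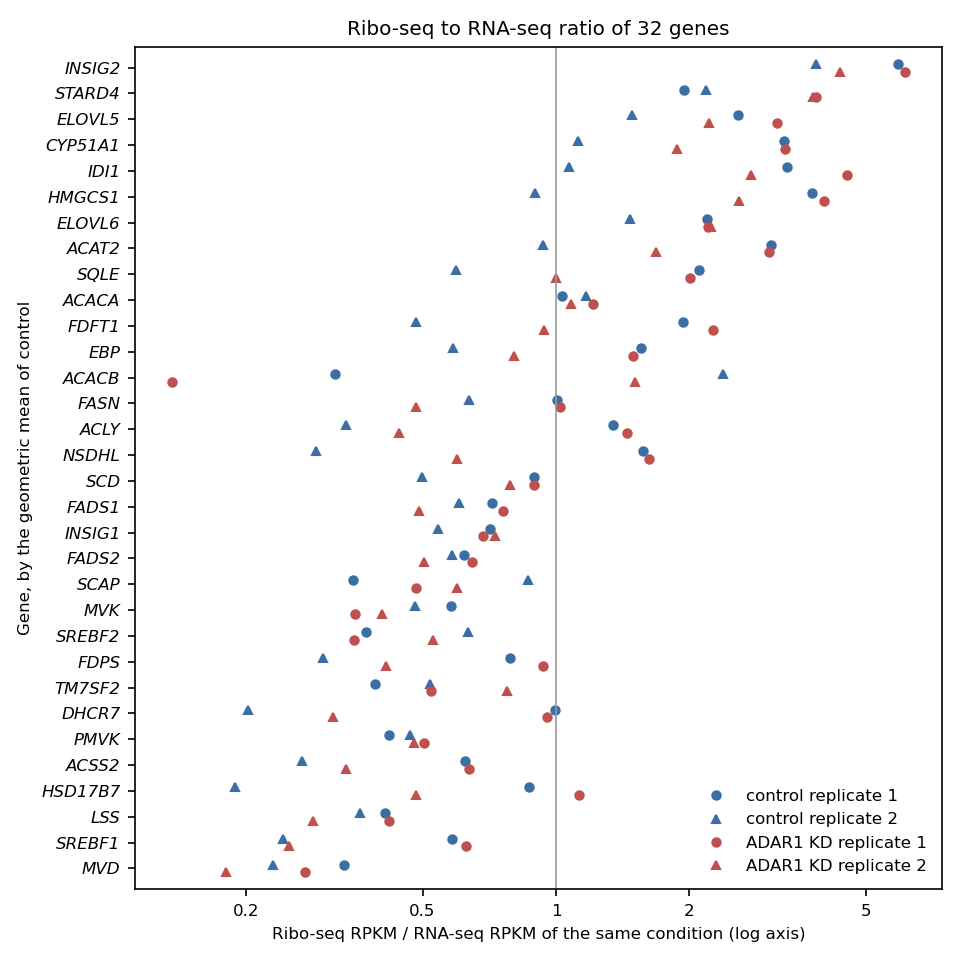
Ribo-seq RPKM divided by the RNA-seq RPKM of the same condition (log axis) for the 32 genes, ordered by the geometric mean of the 2 control values, with blue for control, red for KD, circles for replicate 1 and triangles for replicate 2. INSIG2 is at the top and MVD at the bottom, and circles lie right of the triangles of the same colour in most genes.

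Translation efficiency was described as the ratio of Ribo-seq to RNA-seq RPKM. Because the RPKM values are per length of the whole transcript while ribosomes occupy the coding part, a long UTR lowers this ratio, and its order among genes is a description. By the geometric mean of the 2 control replicates, the highest ratios were those of INSIG2, at 5.92 and 3.85, STARD4, at 1.95 and 2.18, and ELOVL5, the elongase of polyunsaturated chains, at 2.58 and 1.49. By the same mean the lowest were those of MVD, at 0.333 and 0.230, SREBF1, at 0.581 and 0.242, and LSS, the lanosterol synthase, at 0.412 and 0.361. These ratios rest on 1 RNA-seq library per condition, and for INSIG2 on 159 RNA-seq and 23 and 50 Ribo-seq reads in control. The control level in PARS-seq over that in RNA-seq was 3.45 for INSIG2, 33.2 for STARD4 and 2.81 for ELOVL5. It was 0.248 for MVD, 0.175 for SREBF1 and 0.591 for LSS. The order therefore holds only with RNA-seq as the RNA level. INSIG2 lay above every other gene in both replicates, whereas the next genes in the order, STARD4, ELOVL5, CYP51A1 and IDI1, overlapped each other between replicates. At the low end each neighbour in the order MVD, SREBF1, LSS and HSD17B7 overlapped the next, while MVD and LSS did not overlap. The order differed between the replicates. In control replicate 1 ACACB was lowest, at 0.317 from 6 Ribo-seq reads, and HMGCS1 stood next to INSIG2, at 3.77, whereas in control replicate 2 HSD17B7 was lowest, at 0.189, followed by DHCR7, at 0.202, and ACACB stood next to INSIG2, at 2.39. INSIG2 kept a ratio of 6.15 and 4.37 in KD and MVD of 0.272 and 0.180. Over the members the control replicates had a median ratio of 0.942 and 0.584 and the KD replicates of 0.989 and 0.664, beside 0.733 and 0.614 in control and 0.745 and 0.703 in KD over all 10142 genes tested.

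For the change of this ratio the interaction of assay and condition was tested, with the spread taken from Ribo-seq, since RNA-seq has 1 library per condition. None of the 32 genes was called and 0% of all genes passed. Among all genes 2 had an unadjusted p under 0.05, and none was a member. The median change over the members was 0.21 on the log2 scale, beside 0.10 over all genes, and 0.07 beside -0.02 with median ratio scaling. Single Ribo-seq libraries turned the direction of the members' median, which was 0.71 without control replicate 1, -0.24 without control replicate 2, -0.04 without KD replicate 1 and 0.50 without KD replicate 2. For STARD4 the log2 change was 0.86 ± 0.70 with an unadjusted p of 0.268, and its ratio in KD was 3.85 and 3.81.

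When the 5 KD to control pairs are read together, 6 members were lower in KD in every pair (MVK, MVD, INSIG1, SREBF2, ACACB and FADS2), compared with 9.67% of the 9805 genes measured in all assays, and 3 were higher in every pair (SREBF1, FASN and FADS1), compared with 14.9%. For ACACB the first Ribo-seq pair rests on 6 and 3 reads, with a ratio of 0.354 (0.0574 to 1.66). With a median absolute log2 ratio of at least 0.5, MVD, INSIG1 and SREBF2 remained among the lower, compared with 3.36% of all genes, and the same 3 among the higher, compared with 4.01%. SREBF2 had log2 ratios of -0.52 and -0.52 in PARS-seq, -0.58 in RNA-seq and -0.66 and -0.83 in Ribo-seq. SREBF1, whose 5 values lay closest together among these 6 genes, had ratios of 0.73, 0.67, 0.49, 0.59 and 0.52 in the same order, and FADS1 of 0.62, 0.70, 0.54, 0.62 and 0.25. MVD had ratios of -1.42, -1.0, -0.35, -0.63 and -0.68, so that its PARS-seq change was the larger one, and in INSIG1 it was also larger, with -1.34 and -1.31 in PARS-seq beside -0.60 in RNA-seq. FASN had 0.64, 0.61, 0.50, 0.52 and 0.10. The labels do not say whether the libraries of the 3 assays came from the same cultures.

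Read starts at each base were available for 7 of the genes that the supplementary lists pair with a transcript identifier: PMVK, FADS1, NSDHL, ACAT2, FDPS, EBP and INSIG1. The study chose that list for a change in paired bases in these libraries, and the PARS-seq RPKM come from the same reads, so that these values are no independent evidence. In S1 libraries 5 of the 7 transcripts were called, compared with 15.8% of 4721 transcripts, 3 of them lower, compared with 9.28%, and 2 higher, compared with 6.48%. In V1 libraries 3 were called, compared with 9.93% of 16885 transcripts. All 3 were lower, compared with 5.89%, and none was higher, compared with 4.04%. In S1, INSIG1 had 11988 and 7776 read starts in the control libraries and 3773 and 2138 in the KD libraries, and in V1 it had 18997 and 12074 beside 10219 and 5021. It fell by 1.37 ± 0.22 in S1 (adjusted p of 0.000176) and by 1.39 ± 0.26 in V1 (adjusted p of 0.0131). In S1, ACAT2 had 6764 and 5622 read starts in the control libraries and 2839 and 1722 in the KD libraries, and fell by 1.08 ± 0.21 in S1 (adjusted p of 0.00114) and by 1.2 ± 0.20 in V1 (adjusted p of 0.00791). In S1, NSDHL had 4942 and 3092 read starts in the control libraries and 1720 and 1371 in the KD libraries, and fell by 0.95 ± 0.23 in S1 (adjusted p of 0.00539) and by 0.71 ± 0.19 in V1 (adjusted p of 0.0444). The KD values of all 3 transcripts were below both control values in S1.

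PMVK and FADS1 were called higher in S1, by 0.68 ± 0.22 (adjusted p of 0.0345) and 0.64 ± 0.22 (adjusted p of 0.0449), but not in V1, where FADS1 had an adjusted p of 0.0603 and PMVK of 0.119. Whether the nucleases differ was not tested. EBP and FDPS passed in neither. The S1 calls depended on the scaling. Scaled by the totals alone instead of by TMM, the trimmed mean of ratios, the median of all transcripts shifted to -0.36 in S1 and -0.14 in V1. In S1 none of the 7 was then higher and 4 were lower (INSIG1, ACAT2, NSDHL and EBP), and over all transcripts 70 were higher and 878 lower, beside 306 and 438 with TMM. In V1 the split over all transcripts moved from 682 higher and 994 lower to 346 and 1334. Of the S1 libraries, control replicate 1 was deposited with 4722 transcripts, the fewest of the 8 libraries. Without this library 16423 transcripts could be tested, 2 of the 7 were called in S1, and NSDHL had an adjusted p of 0.0851, PMVK of 0.300 and FADS1 of 0.163. With the test kept to the same 4721 transcripts, an alternative chosen after seeing the data, 2 were also called, and the adjusted p was 0.125 for NSDHL, 0.153 for PMVK and 0.0627 for FADS1. Without S1 control replicate 2, 3 were called, with 0.0533 for PMVK and 0.189 for FADS1. Without S1 KD replicate 1 the value was 0.256 for FADS1, and without S1 KD replicate 2 it was 0.318 for PMVK. In V1 the call of NSDHL was lost without control replicate 1 (0.173), KD replicate 1 (0.184) and KD replicate 2 (0.138), while FADS1 passed without control replicate 1 (0.00857) and KD replicate 2 (0.0484) and EBP without control replicate 2 (0.0141).

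**Figure D4:**
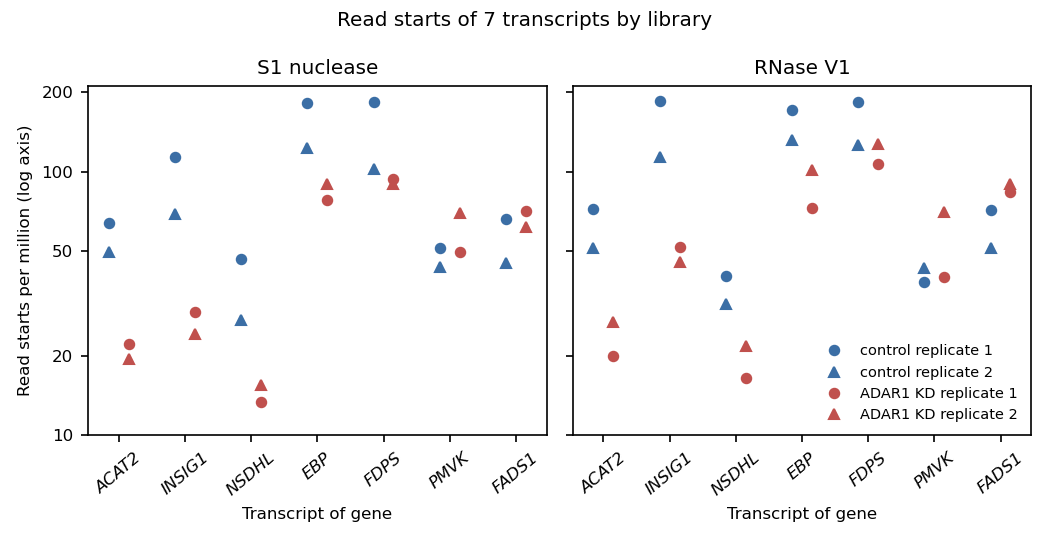
Read starts scaled to the total on the transcripts listed in all 8 libraries (RPM, log axis), for 7 transcripts in the S1 (left) and V1 (right) libraries, with blue for control, red for KD, circles for replicate 1 and triangles for replicate 2. The KD points of ACAT2, INSIG1 and NSDHL are below both control points in either panel, while those of PMVK and FADS1 are near or above the control points.

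The positions of the cuts along these 7 transcripts were compared between libraries. Pearson's correlation of read starts over the bases of a transcript ranged from 0.828 to 0.992 between control and KD S1 libraries and from 0.857 to 0.995 between S1 control replicates. In V1 it ranged from 0.748 to 0.970 between conditions and from 0.782 to 0.961 between control replicates. Between S1 and V1 of the same replicate it ranged from 0.0102 to 0.0835. The bases of 1 transcript share a library and are not independent, so that these values are a description. The scaled read starts of INSIG1 in KD were below control in both nucleases of both pairs, with ratios of 0.259 and 0.351 in S1 and 0.279 and 0.399 in V1, while its S1 profile in KD correlated with that in control at 0.855 to 0.940.

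Genes of neighbouring pathways were called in small numbers, and these lists were chosen with results of these data known. The counts are read against the 7.43% of all genes that were lower and the 8.06% that were higher. Of 18 other sterol and isoprenoid genes tested in PARS-seq 2 fell and none rose, with a median of -0.12: ERG28, a scaffold of the C4-demethylation enzymes, from 98.2 and 78.0 RPKM to 32.4 and 36.1 RPKM, and MSMO1, the C4-methyl oxidase, from 34.9 and 31.9 RPKM to 21.8 and 17.7 RPKM. Of 26 other genes of fatty acid and glycerolipid synthesis 2 fell and 1 rose, with a median of -0.05. PGD and ME1, which both supply NADPH, fell by 1.46 ± 0.19 and 1.34 ± 0.17 on the log2 scale, with adjusted p-values of 0.00352 and 0.00301, and DGAT2, which forms triacylglycerol, rose from 0.755 and 1.03 RPKM to 2.43 and 3.795 RPKM. Of 16 genes of fatty acid oxidation 2 fell, HADHA and ACADL, and none rose, with a median of -0.17. In Ribo-seq none of the genes of these 3 lists was called.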

How the data were processed

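The authors trimmed reads with cutadapt, aligned them with Bowtie2 in local mode to hg19 (GRCh37) and kept unique alignments. Coverage of RefSeq transcripts, counted with coverageBed without a strand option, was deposited as RPKM. For PARS-seq this is the authors' mean over both nucleases. For read starts the authors aligned to UCSC canonical transcripts, with regard to read orientation, and the files deposited hold whole numbers per base whose totals differ between libraries. Versions of the authors' tools are not given in the sources used here.

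The 14 samples were grouped by their labels. Tests were two-sided and used limma 3.58.1 in R 4.3.3, with the variance trend, on log2(RPKM + 1). Genes whose mean reached 1 RPKM were kept, with Benjamini-Hochberg adjustment over all genes tested and a threshold of 0.05. RNA-seq, with 1 library per condition, gave values only. Fold changes on this scale understate those of low genes. A count test had been planned for read starts and was not run, although their sums per transcript are whole numbers. Each deposited cell joins the counts of all bases of a transcript. These were summed, and limma was applied to log2 read starts per transcript with 0.5 added and TMM scaling computed from its definition. Transcripts were kept that reached 15 read starts overall and, in 2 libraries, the equivalent of 10 at median depth. Whole reads were recovered from the RPKM steps for 99.985% of 13306 genes, within 0.005 reads of a whole number, and served for counting intervals. Intervals cover counting error only. The fits were also run on simulated data with independent noise in each library. That setting holds no deviation shared by same-numbered libraries and says nothing of its effect. Figures and promoter searches used Python 3.11.15, pandas 2.3.3 and matplotlib 3.10.9.

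Members and lists were chosen with earlier results of these data known. Values are given in full for the 5 regulators, each member called, each member with 1 direction in all 5 KD to control pairs and a median absolute log2 ratio of at least 0.5, and the 3 highest and 3 lowest Ribo-seq to RNA-seq ratios. From other lists at most 3 called genes are named. Alternatives covered the pseudocount, filters, scaling, the replicate block and leaving out each replicate.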

Additional observations from a re-analysis of the deposited data

Results flagged for a closer look

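In 4 of the 32 genes both PARS-seq pairs were lower in KD while both Ribo-seq pairs were higher, compared with 7.38% of all 10339 genes measured in both, and in none was it the reverse, compared with 7.61%. The difference between the assays was not tested. The mean log2 KD to control ratio in Ribo-seq was 0.51 for FDPS, 0.42 for DHCR7, 0.28 for ELOVL5 and 0.20 for TM7SF2. FDPS, the farnesyl diphosphate synthase, was at 281 and 106 RPKM in the Ribo-seq controls and at 371 and 164 RPKM in KD, and its second PARS-seq pair was almost equal, with 115.02 RPKM in control and 114.73 RPKM in KD. DHCR7, the last reductase before cholesterol, was at 90.1 and 18.3 RPKM in the Ribo-seq controls and at 95.9 and 31.5 RPKM in KD. ELOVL5 was at 40.5 and 23.3 RPKM in the Ribo-seq controls and 44.7 and 31.6 RPKM in KD. TM7SF2 rests on 7 and 31 reads in the Ribo-seq controls and 11 and 28 in KD. In all 4 genes the Ribo-seq groups overlapped, and none of these Ribo-seq changes passed the test.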

How the results depend on the processing

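Of the 32 genes, 9 passed in PARS-seq. With no filter on low values, which tested 19048 genes, 2 passed (MVD and SQLE, with 546 of all genes, beside 1728), and the cause was not tested. Leaving out each replicate gave between 5 and 12. With the replicate number as a block, 20 passed (16 lower and 4 higher, with 5656 of all genes). In Ribo-seq 0 of the 32 passed as reported and in every alternative run except the replicate block, where 1 gene, STARD4, passed with an adjusted p of 0.0178 (143 of all genes), and leaving out each replicate gave 0 in each case, with 24 of all genes passing without KD replicate 2 and 0 otherwise. On recovered reads, an alternative chosen after seeing the data, 0 of 10752 genes passed in Ribo-seq. For translation efficiency 0 of the 32 passed in every alternative run, including the replicate block. With no filter 823 of all genes passed for translation efficiency, beside 0. The S1 read starts gave 5 of 7 as reported and with the block, and 2 to 4 with a replicate left out. The V1 read starts gave 3, 6 with the block and 2 to 4 with a replicate left out. Over all transcripts the block gave 1448 in S1 and 6170 in V1, beside 744 and 1676, and a replicate left out gave 1029 to 3777 in V1. In S1 it gave 478 to 878 of 4721 transcripts for 3 of the libraries, and without control replicate 1 1280 of 16423 transcripts, or 390 of the same 4721, with 2 of the 7 called on either set. With a library left out, the lone sample of its condition is assumed to vary like the other group, and a call that is kept is no sign of stability. Same-numbered libraries deviated together, with a correlation of 0.658 in PARS-seq and 0.811 in Ribo-seq, but 2 pairs and labels without a shared batch do not show that numbers pair the samples. The fits as reported have no term for the replicate, so that this shared deviation stays in their spread. The RNA-seq median of the members was -0.19, beside -0.22 with a pseudocount of 0.1, -0.21 with a mean of at least 5 RPKM and -0.18 with median ratio scaling. Uncalled changes turned their direction. In PARS-seq, with a library left out, FDPS (-0.19) ranged from -0.427 to 0.0455, STARD4 (-0.14) from -0.582 to 0.309 and ACLY (-0.0181) from -0.0506 to 0.0144. FDPS turned without control replicate 1, ACLY without KD replicate 2 and STARD4 in both cases. FDPS also turned without control replicate 1 in V1, with a range from -0.480 to 0.0466, and in S1 on the same transcripts, at 0.0476. With 1 Ribo-seq library left out, the Ribo-seq change of SREBF1 (0.56) ranged from -0.098 to 1.21 and that of FASN (0.31) from -0.227 to 0.849, both below 0 without control replicate 2 or KD replicate 1. The translation efficiency change ranged from -0.585 to 0.722 for SREBF1 (0.07), from -0.544 to 0.210 for SREBF2 (-0.17), from -0.0031 to 0.384 for INSIG1 (0.19) and from -0.725 to 0.350 for FASN (-0.19). The direction turned without control replicate 2 for SREBF1, SREBF2 and INSIG1, without KD replicate 1 for SREBF1 and SREBF2, and without control replicate 1 or KD replicate 2 for FASN. With median ratio scaling it was -0.0698 for SREBF1. The planned test with DESeq2 was not run. Ribo-seq depth limits genes such as HSD17B7, with 8 to 15 reads per library.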
